A study of Homo sapiens with 22 samples.

Results

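Transcripts of the proteasome, the protease that breaks down ubiquitin-tagged proteins, were followed in Kasumi-1 leukaemia cells in which an shRNA had lowered FIP1L1. The genes were chosen by symbol: every protein-coding gene named PSMA, PSMB, PSMC, PSMD, PSME, PSMF or PSMG with a digit after it, leaving pseudogenes out. The annotation held 50 such genes, of which 49 were matched to the 48162 genes of the RNA-seq count table. Of these, 47 passed the filter on low counts and stood among the 15834 genes tested. PSMB3, a structural beta subunit, was not matched to the table and was not analysed here. PSMA8, the testis alpha subunit, had no count in any of the 12 libraries, and PSMB11, the thymus catalytic subunit, had 2 counts over all of them, so neither was tested. PSMC3IP, a recombination protein, and PSME3IP1, an interactor of PSME3, are taken by the symbols but are no subunits, and they are included in the counts over 47 genes.

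Kasumi-1 is an established acute myeloid leukaemia cell line with a RUNX1-RUNX1T1 fusion, and FIP1L1 is a subunit of the complex that recognises the poly(A) signal at the end of a pre-mRNA before cleavage and polyadenylation. RNA-seq libraries came from cells given shRNA 1 against FIP1L1, shRNA 2 against FIP1L1 or a control shRNA, 4 libraries each. All 3 groups were grown in RPMI with 10% FBS, were infected with an shRNA lentivirus and went through puromycin selection, so the control cells also carry a virus and have met the drug. The groups are selected pools of 1 cell line. The labels name the replicates biological. They leave unsaid whether each had its own transduction, and a p-value here measures only how these samples spread.

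In the 20S core, rings of alpha and beta subunits enclose the catalytic sites, which sit on PSMB5, PSMB6 and PSMB7. In immune cells and after interferon, PSMB8, PSMB9 and PSMB10 take their places and form the immunoproteasome. The 19S particle caps the core: its base unfolds substrates with the PSMC ATPases and its lid removes the ubiquitin chains. Other caps, encoded by PSME genes, open the core without ATP, PSMF1 binds it as a regulator, and PSMG proteins and the non-ATPases PSMD5, PSMD9 and PSMD10 help assembly. The factor NFE2L1 is known to raise subunit genes together when proteasome activity is short, and proteasome inhibitors are used against some blood cancers.

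RNA-seq totals ran between 12236937 and 20388437 counts per library. No replicate pair correlated across genes below 0.968 on the log2 CPM scale, and no pair from different groups above 0.954. FIP1L1 had 14.1, 14.7, 15.1 and 17.6 CPM (counts scaled to the TMM-adjusted library size) with shRNA 1, 20.2, 20.2, 19.1 and 18.7 CPM with shRNA 2, and 42.2, 38.9, 44.1 and 40.2 CPM in the control. The knockdown libraries and the control libraries did not overlap. Its log2 change was -1.43 with shRNA 1 (SE 0.10, edgeR adjusted p = 1.92e-11) and -1.08 with shRNA 2 (SE 0.10, edgeR adjusted p = 3.01e-09). All 9 markers of Kasumi-1 and myeloid blasts were detected in every group. Their summed level ran from 8113 to 10395 CPM with shRNA 1, from 11214 to 13833 CPM with shRNA 2 and from 18025 to 20162 CPM in the control, and its part in the results was not tested. MPO carried most of that sum, at a mean of 7212 CPM with shRNA 1, 9913 CPM with shRNA 2 and 16234 CPM in the control. Of the 9 markers, 7 were lower and SPI1 higher with shRNA 1. With shRNA 2, 4 were lower, while CD33 was 2.53-fold and ANPEP 1.94-fold higher. Summed T and B cell markers stayed at or under 5.21 CPM, erythroid markers at or under 1.38 CPM and fibroblast markers at or under 0.822 CPM, with MS4A1, HBB, COL1A2 and COL3A1 at 0 in every library. Epithelial markers summed to 38.3 to 47.9 CPM with shRNA 1, 135 to 144 CPM with shRNA 2 and 125 to 150 CPM in the control, and their part in the results was not tested either. LNX1 lies over FIP1L1 on the other strand, and whether the counting kept reads of that pair apart is not given in the sources here. In such bulk RNA, fewer cells of a type and less RNA per cell cannot be told apart.

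In control cells the core and base subunits led the levels per length of exon. Levels are given as CPM per kilobase of the union of a gene's exons. The alpha subunit PSMA7 was at 110 ± 8.73 (SD, n = 4), the ATPase PSMC3 at 92.0 ± 10.4, the catalytic subunit PSMB7 at 86.8 ± 6.14, the structural subunit PSMB4 at 78.7 ± 4.55 and the scaffold PSMD2 at 71.2 ± 5.39. PSMC3 and PSMB7 differed by less than their spread. At the other end, the alpha subunits PSMA2 and PSMA6 stood at 0.474 ± 0.0645 and 0.404 ± 0.0308, the chaperone PSMD9 at 0.316 ± 0.0902 and the chaperone PSMG2 at 0.300 ± 0.121. Several of the low genes share coding sequence with another gene. In GENCODE 29 a second protein-coding gene on the same strand covers 97.1% of the coding bases of PSMA2, 88.6% of PSMA1, 70.4% of PSMA6 and 58.3% of PSMB10. For PSMD9 the share is 58.7%, taken over CFAP251 and another protein-coding gene together. How the counting treated such reads is not given in the sources here, so the levels and changes of these 5 genes are uncertain. Over all libraries the overlapping gene had 0 counts for PSMA1, 2 for PSMA2 and 39 for PSMA6. A gene over PSMD9 had 2, and the gene over PSMB10 had 572. The gene over PSMB10 was called higher with shRNA 1 (log2 change 1.09, edgeR adjusted p = 0.00262) and with shRNA 2 (1.04, edgeR adjusted p = 0.00474). PSMG2 was as low without such an overlap. Coding bases on the other strand are also shared by 47.7% for PSMC1 with NRDE2, 28.4% for PSMD7, 16.0% for PSMC3IP, 14.0% for PSMB8 and 10.5% for PSMC5. Whether the counting kept reads of the strands apart is not given in the sources here, so these levels are also uncertain. PSMC1 has 13 named pseudogenes. Dividing by the longest coding transcript in place of the exon union put PSMA7 again highest, at 194 CPM per kilobase. The order below it changed. PSMB4 was at 176, PSMB7 at 158 and the structural subunit PSMB1 at 135, all above PSMC3 at 132. The lid subunit PSMD3, at 121, stood above PSMD2, at 113.

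**Figure D1:**
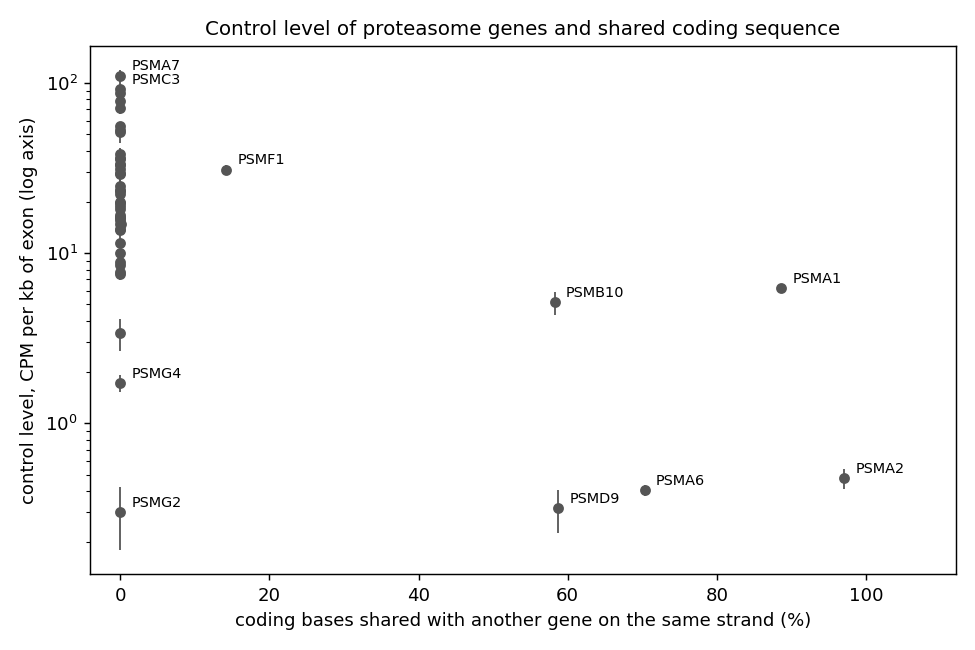
Mean control level of each proteasome gene with reads in the control, in CPM per kilobase of exon on a log axis with its SD over 4 libraries, against the percent of its coding bases shared with another gene on the same strand. PSMA1, PSMA2, PSMA6, PSMB10 and PSMD9 lie over 50% and between 0.316 and 6.22 CPM per kilobase.

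The first comparison asked what FIP1L1 knockdown with shRNA 1 did to proteasome transcripts. Many of them fell together: 27 of 47 were lower, 4 were higher and 16 were not called (edgeR adjusted p under 0.05). Over all 15834 genes tested, 57.3% were called, 28.7% lower and 28.6% higher, against 57.4% of the proteasome genes lower and 8.51% higher. The median log2 change was -0.29 over the proteasome genes and 0.02 over all genes tested. Falls of at least 2-fold were found for 8 of 47, against 8.29% of all genes tested. These 8 were PSMD3, PSMB2, PSMD14, PSME2, PSMB7, PSMC3, PSMD1 and PSMB5, spread over the core, the base, the lid and an activator. The summed level of all 49 genes was 3237 ± 62.0 CPM with shRNA 1 and 4428 ± 285 CPM in the control (SD, n = 4 each), or 73.1% of the control. The 20S core summed to 66.6% and the 19S particle to 72.3% of the control.

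**Figure D2:**
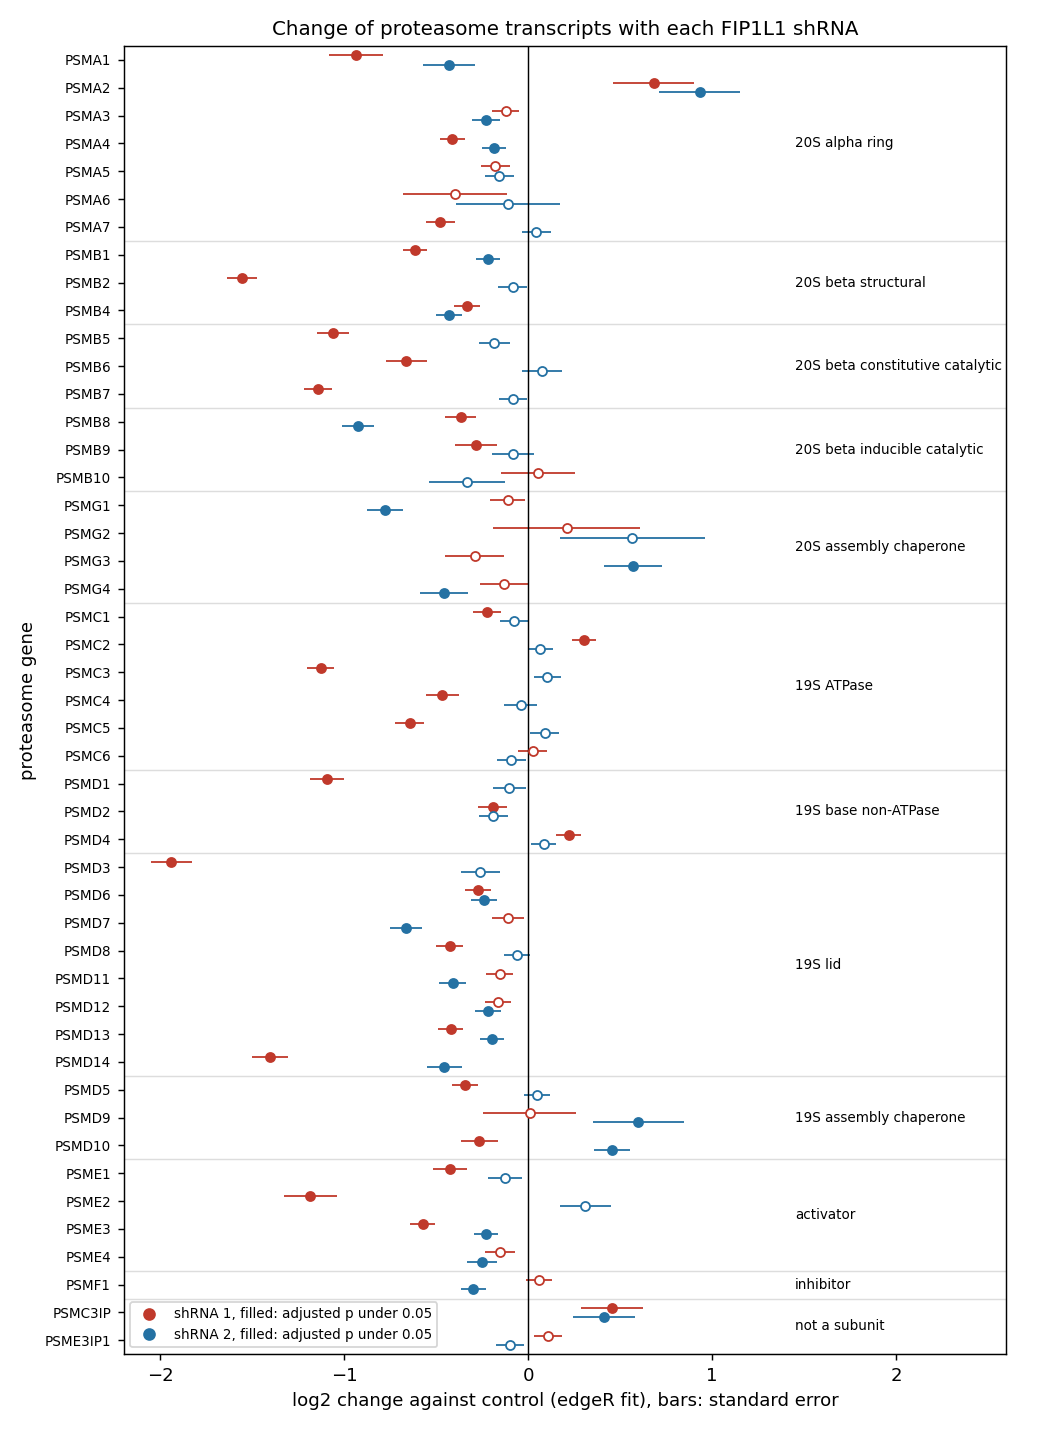
Log2 change against the control of the 47 tested genes by role, with shRNA 1 in red and shRNA 2 in blue. Bars are standard errors of the edgeR fit, and filled points have an adjusted p under 0.05. With shRNA 1, PSMD3 lies farthest left at -1.94, and no gene lies beyond -1 with shRNA 2.

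The 3 deepest falls with shRNA 1, in PSMD3, PSMB2 and PSMD14, and the rise with the smallest adjusted p, in PSMC2, are shown with their promoters, so that the sequence in front of genes that went opposite ways can be read side by side. These 4 were chosen after their values were seen. Each line holds the 250 bases before the RefSeq start on GRCh38.p14, written 5′ to 3′ along the gene: chr17:39980557-39980806 on the plus strand for PSMD3, chr1:35641527-35641776 on the minus strand for PSMB2, chr2:161308175-161308424 on the plus strand for PSMD14, chr7:103347393-103347642 on the plus strand for PSMC2. Capitals mark matches on either strand to TGACNNNGC (the core of the antioxidant response element, which NFE2L1 and NFE2L2 bind), CCAAT (the NF-Y box) and CCGGAAG (an ETS core).
PSMD3: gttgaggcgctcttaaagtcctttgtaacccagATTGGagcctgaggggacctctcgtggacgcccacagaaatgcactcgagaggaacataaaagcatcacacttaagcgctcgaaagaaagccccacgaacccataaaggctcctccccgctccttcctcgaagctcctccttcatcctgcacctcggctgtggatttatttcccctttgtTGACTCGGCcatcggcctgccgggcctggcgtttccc
PSMB2: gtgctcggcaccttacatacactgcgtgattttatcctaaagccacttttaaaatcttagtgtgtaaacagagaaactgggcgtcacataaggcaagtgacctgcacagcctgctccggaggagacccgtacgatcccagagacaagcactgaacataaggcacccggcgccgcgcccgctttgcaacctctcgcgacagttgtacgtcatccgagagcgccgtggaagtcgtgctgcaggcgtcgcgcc
PSMD14: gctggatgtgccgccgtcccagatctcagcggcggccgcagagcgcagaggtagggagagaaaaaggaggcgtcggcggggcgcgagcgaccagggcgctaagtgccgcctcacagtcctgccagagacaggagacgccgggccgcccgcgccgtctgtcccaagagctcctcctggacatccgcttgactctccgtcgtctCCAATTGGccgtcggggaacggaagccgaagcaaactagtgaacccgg
PSMC2: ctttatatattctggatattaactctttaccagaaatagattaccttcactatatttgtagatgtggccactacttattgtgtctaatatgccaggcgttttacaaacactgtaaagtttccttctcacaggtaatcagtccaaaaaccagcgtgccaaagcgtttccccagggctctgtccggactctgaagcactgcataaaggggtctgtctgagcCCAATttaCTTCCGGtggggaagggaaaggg
PSMD3 holds TGACNNNGC starting 37 bases before its start and CCAAT on the other strand at 217 bases. PSMD14 holds CCAAT at 48 bases, overlapped by the same motif on the other strand at 45 bases. PSMC2 holds CCAAT at 31 bases and CCGGAAG on the other strand at 23 bases. In PSMB2 these 250 bases hold none of the 3 motifs, and a CCAAT spans its start and so runs past the bases printed.

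Promoters were found for 44 of the 50 genes, the entries of PSMA7, PSMB1, PSMB6, PSMB7, PSMD4 and PSMG3 being missing. In a window of 300 bases that adds 50 bases after the start, TGACNNNGC stood in 29.5% of the 44 against 13.6% of all 27305 promoters. CCAAT stood in 47.7% against 35.7%, and CCGGAAG in 31.8% against 10.7%. Over the promoters of protein-coding genes alone, the shares were 14.3% for TGACNNNGC, 36.6% for CCAAT and 14.4% for CCGGAAG. The median log2 change with shRNA 1 was -0.31 over the 12 tested genes with TGACNNNGC and -0.26 over the 29 without it. For CCGGAAG it was -0.15 over 13 genes with the motif and -0.35 over 28 without, and for CCAAT -0.27 over 19 with it and -0.28 over 22 without. With shRNA 2 the medians with and without the motif were -0.09 and -0.19 for TGACNNNGC, -0.20 and -0.14 for CCGGAAG, and -0.10 and -0.19 for CCAAT.

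Because FIP1L1 acts at transcript ends, the last 30 bases of the annotated principal transcript are printed for the same genes, with the poly(A) signal AATAAA or ATTAAA, searched on the transcript's strand, in capitals. They come from GENCODE 29 on GRCh38, at chr17:39997931-39997960 on the plus strand for PSMD3, chr1:35601584-35601613 on the minus strand for PSMB2, chr2:161411688-161411717 on the plus strand for PSMD14, chr7:103369366-103369395 on the plus strand for PSMC2.
PSMD3: ttttaaacAATAAAaagttctccacagtgc
PSMB2: cgttcatATTAAAgtattgggttaacatta
PSMD14: acttacaaAATAAAatacatttacagtcta
PSMC2: gattaAATAAAtgtacacatttagaacaca
In the last 40 bases, 33 of the 47 tested genes held AATAAA, or 70.2% against 60.8% of 12485 tested genes with such an end. A further 8 held ATTAAA, or 17.02% against 14.2%. PSMB5, PSMD1, PSMD13, PSMD9, PSME3 and PSMG1 held neither. With shRNA 1 the median log2 change was -0.33 over the 33 genes with AATAAA, -0.20 over the 8 with ATTAAA and -0.50 over the 6 with neither. Which ends these cells used was not analysed here.

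All 3 constitutive catalytic subunits fell with shRNA 1, where 28.7% of all genes tested were lower, with a median log2 change of -1.06. PSMB5, the chymotrypsin-like subunit and target of bortezomib (ENSG00000100804, GRCh38 chromosome 14, 23016543 to 23035230, minus strand), had 31.0, 25.5, 32.9 and 33.7 CPM with shRNA 1 and 62.6, 61.1, 67.4 and 64.9 CPM in the control. Its log2 change was -1.06 (SE 0.09, edgeR adjusted p = 4.4e-10). PSMB7, the trypsin-like subunit (ENSG00000136930, chromosome 9, 124353466 to 124415444, minus strand), had 60.3, 73.3, 68.1 and 79.3 CPM with shRNA 1 and 156, 142, 169 and 153 CPM in the control. No shRNA 1 library reached a control library for either gene, and PSMB7 changed by -1.14 (SE 0.08, edgeR adjusted p = 1.62e-11). PSMB6, the caspase-like subunit (ENSG00000142507, chromosome 17, 4796144 to 4798503, plus strand), had 22.2, 22.9, 27.9 and 34.9 CPM with shRNA 1 and 42.2, 40.4, 44.9 and 42.7 CPM in the control. It changed by -0.66 (SE 0.11, edgeR adjusted p = 2.18e-05), again with no overlap between groups. The 3 together summed to 128 ± 14.7 CPM with shRNA 1 and 262 ± 15.3 CPM in the control, or 48.9% of the control.

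The structural beta subunits PSMB1, PSMB2 and PSMB4 were also all lower with shRNA 1, against 28.7% of all genes tested. PSMB2 (ENSG00000126067, chromosome 1, 35599544 to 35641844, minus strand) had 47.1, 42.2, 49.6 and 52.1 CPM with shRNA 1 and 126, 128, 161 and 146 CPM in the control. That is 2.94-fold lower, a log2 change of -1.56 (SE 0.08, edgeR adjusted p = 2.21e-13), and the groups lay far apart. PSMB1 changed by -0.62 and PSMB4 by -0.33. Of 7 alpha ring subunits tested, 3 were lower, 1 was higher and 3 were not called. The 57.1% called was near the 57.3% of all genes tested. PSMA7 changed by -0.48 and PSMA4 by -0.41. PSMA1, with most of its coding bases shared, had 8.91, 8.05, 14.0 and 12.2 CPM with shRNA 1 and 19.95, 19.1, 21.9 and 21.1 CPM in the control, a log2 change of -0.94 (SE 0.15, edgeR adjusted p = 7.73e-06). PSMA2 went the other way, with 3.77, 4.23, 4.49 and 3.68 CPM with shRNA 1 and 2.62, 2.90, 2.07 and 2.52 CPM in the control. Its log2 change of 0.68 (SE 0.22, edgeR adjusted p = 0.0114) stands on few reads and on the highest shared share of all members.

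In the lid of the 19S particle, which carries the deubiquitinating activity, 5 of 8 subunits were lower with shRNA 1 and none was higher. Among all genes tested, 28.7% were lower and 28.6% higher. PSMD3, a scaffold subunit of the lid (ENSG00000108344, chromosome 17, 39980797 to 39997960, plus strand), had 52.9, 59.0, 78.5 and 83.0 CPM with shRNA 1 and 257, 248, 293 and 250 CPM in the control. It was 3.84-fold lower (log2 change -1.94, SE 0.11, edgeR adjusted p = 6.52e-11), the deepest fall of the 47 genes. PSMD14, the deubiquitinase of the lid (ENSG00000115233, chromosome 2, 161308038 to 161411717, plus strand), had 35.9, 30.2, 24.2 and 25.7 CPM with shRNA 1 and 76.3, 73.8, 83.1 and 74.8 CPM in the control. The groups did not overlap, and the log2 change was -1.41 (SE 0.10, edgeR adjusted p = 2.57e-11). PSMD8 changed by -0.43, PSMD13 by -0.42 and PSMD6 by -0.27, while PSMD7, PSMD11 and PSMD12 were not called, at -0.11, -0.15 and -0.16.

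The base was more mixed with shRNA 1, with 4 of 6 ATPases lower and 1 higher, against 28.7% and 28.6% of all genes tested. PSMC3 (ENSG00000165916, chromosome 11, 47418769 to 47426473, minus strand) had 93.9, 97.8, 94.3 and 97.3 CPM with shRNA 1 and 203, 186, 242 and 207 CPM in the control, without overlap (log2 change -1.13, SE 0.07, edgeR adjusted p = 7.38e-12). PSMC5, PSMC4 and PSMC1 changed by -0.64, -0.47 and -0.23. PSMC2 (ENSG00000161057, chromosome 7, 103344254 to 103369395, plus strand) had 105, 102, 101 and 105 CPM with shRNA 1 and 88.9, 76.1, 88.6 and 81.1 CPM in the control. All its shRNA 1 libraries lay above the control libraries (log2 change 0.30, SE 0.07, edgeR adjusted p = 0.000434). PSMC6 was not called, at 0.02. Among the non-ATPases, PSMD1, a large docking scaffold, had 47.4, 39.2, 35.2 and 35.5 CPM with shRNA 1 and 83.6, 77.9, 91.1 and 83.6 CPM in the control, again apart (log2 change -1.10, SE 0.09, edgeR adjusted p = 6.15e-10). PSMD4, a ubiquitin receptor, was higher by 0.22. PSMD2 had 357, 394, 299 and 309 CPM with shRNA 1 and 391, 360, 428 and 374 CPM in the control, an overlap, with a log2 change of -0.19 (SE 0.08, edgeR adjusted p = 0.042).

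Outside the particle itself, 3 of 4 activators fell with shRNA 1, against 28.7% of all genes tested. None of the PSMG chaperones passed the test, where 57.3% of all genes tested did. PSME2, the beta subunit of the interferon-induced PA28 cap (ENSG00000100911, chromosome 14, 24143362 to 24147570, minus strand), had 18.5, 17.5, 28.0 and 30.3 CPM with shRNA 1 and 57.1, 47.2, 60.2 and 48.7 CPM in the control. It was 2.27-fold lower with no overlap (log2 change -1.18, SE 0.15, edgeR adjusted p = 1.94e-06). Its partner PSME1 changed by -0.42 and the nuclear activator PSME3 by -0.57, while PSME4 was not called at -0.15. PSMG1 to PSMG4 lay between -0.29 and 0.21, none called. PSMG3 had 8.34, 13.3, 14.8 and 18.6 CPM with shRNA 1 and 15.5, 16.2, 18.2 and 17.05 CPM in the control, which overlapped. Of the 19S chaperones, PSMD5 had 41.5, 39.4, 39.4 and 39.8 CPM with shRNA 1 and 48.7, 50.03, 51.8 and 52.3 CPM in the control (log2 change -0.34, SE 0.07, edgeR adjusted p = 0.000253). The regulator PSMF1 was not called, at 0.06, and neither was PSME3IP1, at 0.11. PSMC3IP had 10.1, 10.6, 11.3 and 15.7 CPM with shRNA 1 and 8.89, 7.94, 11.2 and 6.73 CPM in the control, higher by 0.46 (SE 0.17, edgeR adjusted p = 0.0245) with an overlap.

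Some calls near the threshold with shRNA 1 were lost without a single library or in another fit. PSMB9 was no longer called without control replicates 1, 2 or 4 or shRNA 1 replicates 1 or 2, with edgeR adjusted p up to 0.125, or with only the 2 groups in the fit (0.0874). PSMD2 was lost without control replicates 1 or 3 or shRNA 1 replicates 3 or 4 (up to 0.157), with only the 2 groups in the fit (0.0865) and by DESeq2 (0.0506). PSMD10 was lost without control replicates 3 or 4 or shRNA 1 replicates 2 or 4 (up to 0.138), and with only the 2 groups (0.0706). PSMC3IP was lost without control replicates 2 or 4 or shRNA 1 replicate 4 (up to 0.133), and PSMC1 without shRNA 1 replicate 3 (0.066). Other genes gained a call. PSMA5 passed without control replicate 1 or shRNA 1 replicate 1, PSMD12 without control replicate 1 or shRNA 1 replicates 1 or 2, PSMD11 and PSME4 without shRNA 1 replicate 1, and PSMG3 without shRNA 1 replicate 4, with edgeR adjusted p between 0.00718 and 0.0348.

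**Figure D3:**
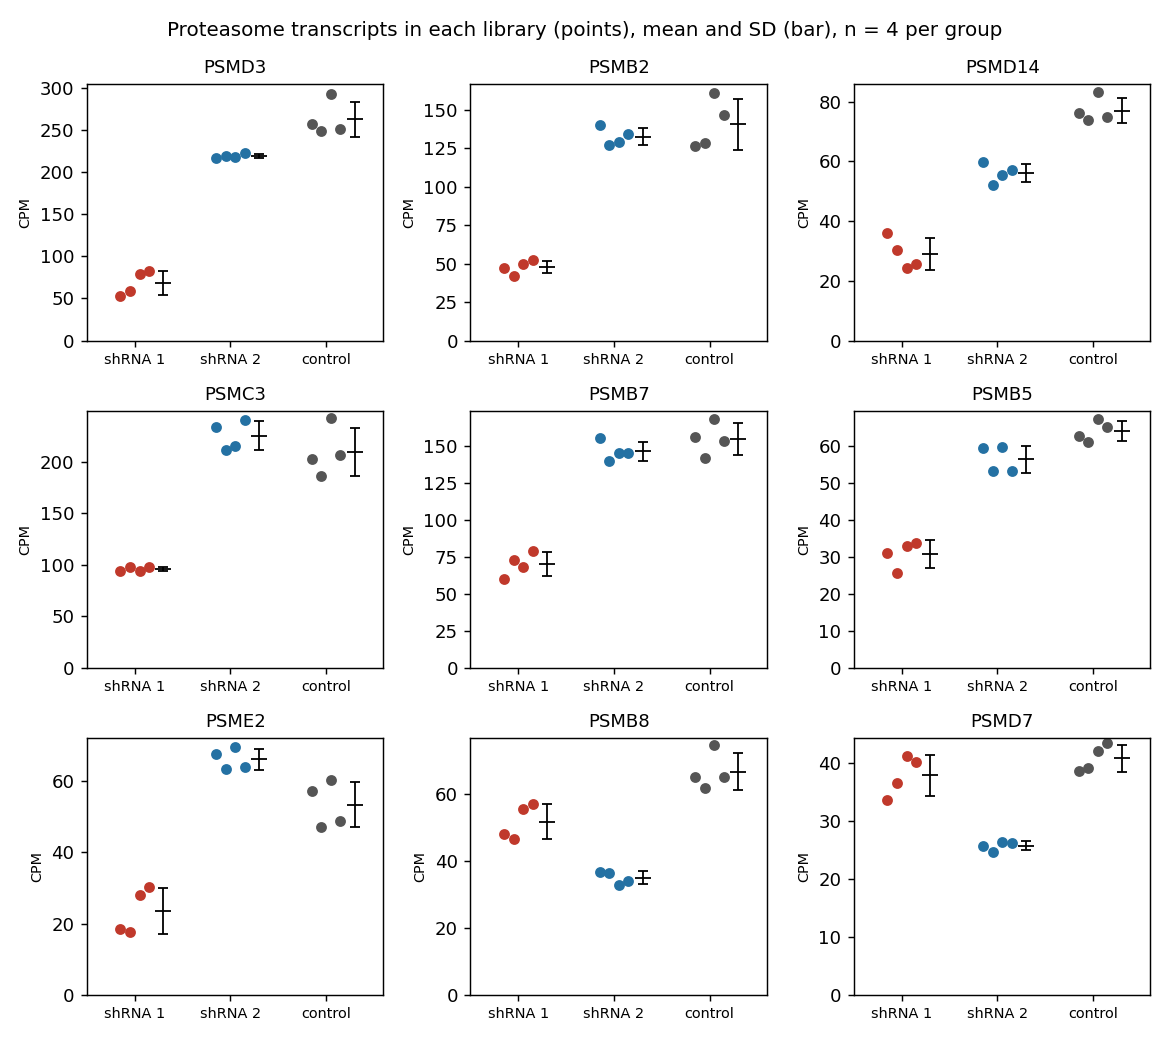
CPM of 9 proteasome genes in each library, with the mean and SD of the 4 libraries per group beside the points. For PSMD3, PSMB2, PSMC3, PSMB7 and PSME2 the shRNA 1 libraries stand far below the rest, and for PSMB8 and PSMD7 the shRNA 2 libraries are lowest.

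The second comparison set shRNA 2 against the same control libraries, and its median change was nearer to 0. Lower were 17 of 47 genes, higher 5, and 25 were not called. Over all genes tested, 50% were called, 25.3% lower and 24.7% higher, against 46.8% of the proteasome genes called, 36.2% lower and 10.6% higher. The share called was near that of all genes. The median log2 change was -0.11 over the proteasome genes and 0.00 over all genes tested, and none of the 47 was lower or higher by 2-fold, against 6.35% of all genes lower and 6.98% higher. The summed level was 4008 ± 115 CPM with shRNA 2 and 4428 ± 285 CPM in the control (SD, n = 4 each), or 90.5% of the control. None of the 6 ATPases, the 3 other base subunits or the 3 constitutive catalytic subunits was called with shRNA 2. In the lid 6 of 8 were lower.

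PSMD7, a lid subunit (ENSG00000103035, chromosome 16, 74296775 to 74306288, plus strand), had 25.7, 24.6, 26.4 and 26.2 CPM with shRNA 2 and 38.6, 39.1, 42.1 and 43.4 CPM in the control. It had the deepest fall of the lid with shRNA 2, without overlap (log2 change -0.67, SE 0.09, edgeR adjusted p = 1.23e-06). PSMD14 had 59.7, 52.1, 55.6 and 57.2 CPM with shRNA 2, below all the control values given above (log2 change -0.46, SE 0.09, edgeR adjusted p = 0.000335). PSMD11 changed by -0.41, PSMD6 by -0.24, PSMD12 by -0.22 and PSMD13 by -0.20. PSMD3 had 217, 219, 218 and 223 CPM with shRNA 2, all below the control libraries. Its log2 change of -0.26 (SE 0.11) just missed the threshold at an edgeR adjusted p of 0.0501. It passed with RLE scaling, with no filter, with only the 8 libraries of this comparison in the fit and with DESeq2, at adjusted p between 0.000144 and 0.046.

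PSMB8, the inducible chymotrypsin-like subunit (ENSG00000204264, chromosome 6, 32840717 to 32844703, minus strand), fell more than any other core subunit with shRNA 2. It had 36.8, 36.4, 32.9 and 34.2 CPM with shRNA 2 and 65.2, 61.9, 74.7 and 65.1 CPM in the control, which did not overlap. That is 1.90-fold lower (log2 change -0.93, SE 0.09, edgeR adjusted p = 5.05e-09). PSMB9, its neighbour in the genome and the inducible subunit that replaces PSMB6, had 21.4, 21.0, 24.2 and 23.5 CPM with shRNA 2 and 24.7, 26.2, 20.1 and 24.3 CPM in the control, and was not called at -0.08. PSMB10 had 6.57, 7.59, 8.0 and 8.15 CPM with shRNA 2 and 8.52, 8.62, 9.19 and 11.7 CPM in the control, not called at -0.33. The structural subunit PSMB4 had 126, 118, 131 and 129 CPM with shRNA 2 and 160, 165, 183 and 171 CPM in the control, apart, with a change of -0.43 (SE 0.07, edgeR adjusted p = 1.73e-05).

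The chaperones went opposite ways with shRNA 2. PSMG1, which starts alpha ring assembly with PSMG2 (ENSG00000183527, chromosome 21, 39174769 to 39183851, minus strand), had 22.3, 22.1, 23.8 and 23.5 CPM with shRNA 2 and 37.2, 37.9, 45.0 and 37.1 CPM in the control. It was 1.72-fold lower (log2 change -0.78, SE 0.10, edgeR adjusted p = 5.44e-07), with no overlap. PSMG4 changed by -0.46. PSMG3, which pairs with PSMG4, had 23.5, 25.7, 27.2 and 23.1 CPM with shRNA 2, above all control libraries (log2 change 0.57, SE 0.16, edgeR adjusted p = 0.00461). PSMD10, the chaperone gankyrin, had 50.6, 46.0, 42.4 and 46.0 CPM with shRNA 2 and 28.0, 32.0, 35.7 and 38.8 CPM in the control, again all above (log2 change 0.46, SE 0.10, edgeR adjusted p = 0.000544). PSMD9 had 4.61, 3.74, 4.38 and 4.17 CPM with shRNA 2 and 2.77, 1.79, 3.73 and 2.80 CPM in the control, a change of 0.60 (SE 0.25, edgeR adjusted p = 0.0492) in a gene with shared coding bases. The regulator PSMF1 had 136, 124, 136 and 137 CPM with shRNA 2 and 162, 150, 174 and 168 CPM in the control, below in every library (log2 change -0.30, SE 0.07, edgeR adjusted p = 0.00105). The activators PSME3 and PSME4 changed by -0.23 and -0.25. PSMC3IP had 10.6, 12.01, 11.2 and 12.4 CPM with shRNA 2, higher by 0.41 (SE 0.17, edgeR adjusted p = 0.0457) with an overlap.

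With shRNA 2 the count of 5 higher genes was the least firm. It became 3 without any 1 of control replicates 1, 2 and 4 or of the 4 shRNA 2 libraries. PSMD9 was lost in each of these 7 fits (edgeR adjusted p up to 0.153) and with no filter (0.102), and PSMC3IP in the same 7 (up to 0.172). Among lower genes, PSMA4 was lost without control replicates 3 or 4 or shRNA 2 replicates 1, 2 or 4 (up to 0.106), and PSMD13 without control replicates 3 or 4 or shRNA 2 replicate 1 (up to 0.0849). Both were also lost with no filter (edgeR adjusted p = 0.0517 for PSMA4 and 0.0569 for PSMD13). PSMA3 was lost without shRNA 2 replicate 2 (0.0584), PSMD12 without control replicate 3 (0.0555) and PSME4 without shRNA 2 replicate 3 (0.0507). PSME2 was not called, at 0.31 (edgeR adjusted p = 0.0745), although its 67.5, 63.3, 69.4 and 63.9 CPM with shRNA 2 all lay above the control, and it passed with no filter (0.0022) and with only the 2 groups in the fit (0.000656). Of the base and catalytic genes not called, PSMB5 passed with only the 2 groups in the fit (0.0171), PSMC3 without control replicate 3 (0.0315) and PSMD2 without control replicate 2 (0.0404), with no filter (0.0279) and with only the 2 groups (0.00539). PSMA5 passed without control replicate 1 (0.0433) and with only the 2 groups (0.0327).

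Both shRNAs were measured against 1 set of 4 control libraries, and their values are therefore set side by side. Lower with both shRNAs were 9 of 47 genes, or 19.1% against 12.8% of all genes tested: PSMD6, PSMD13 and PSMD14 of the lid, PSMA1, PSMA4, PSMB1, PSMB4 and PSMB8 of the core, and PSME3. PSMD14 was at -1.41 with shRNA 1 and -0.46 with shRNA 2, and PSMB8 at -0.37 with shRNA 1 and -0.93 with shRNA 2. Higher with both were PSMA2 and PSMC3IP, 4.26% against 12.6% of all genes. PSMA2 had 4.87, 3.91, 4.82 and 5.70 CPM with shRNA 2, a log2 change of 0.93 (SE 0.22, edgeR adjusted p = 0.00115). PSMD10 was the 1 gene called in opposite directions, -0.26 with shRNA 1 and 0.46 with shRNA 2, where 7.86% of all genes were. Its shRNA 1 libraries, at 30.8, 26.2, 28.9 and 26.3 CPM, overlapped the control (SE 0.10, edgeR adjusted p = 0.029). That call was lost in several other fits, as given above. PSMA5, PSMA6, PSMB10, PSMC6, PSMG2 and PSME3IP1 were called with neither.

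The direct test of shRNA 2 against shRNA 1 addressed whether the knockdowns differed. Of 47 genes, 23 were higher with shRNA 2 than with shRNA 1, 8 were lower and 16 were not called, where 58.7% of all genes were called, 29.3% higher and 29.4% lower. The median log2 difference was 0.25 over the proteasome genes and -0.02 over all genes tested. Of the 27 genes lower with shRNA 1 against the control, 21 were higher with shRNA 2 than with shRNA 1, and over all genes tested this held for 2978 of 4543. Both comparisons use the shRNA 1 libraries. PSMD3 was 3.21-fold higher with shRNA 2 (log2 difference 1.68, SE 0.11, edgeR adjusted p = 4.05e-10), PSME2 2.82-fold, PSMB2 2.78-fold, PSMC3 2.35-fold and PSMB7 2.09-fold. These 5 were the genes at least 2-fold higher, where 8.78% of all genes were, and none was at least 2-fold lower, where 10.3% were. The lower ones were PSMB8, PSMC2, PSMD7, PSMD11, PSMF1, PSMG1, PSMG4 and PSME3IP1. PSMG1 differed by -0.67, and PSMB8 and PSMD7 by -0.56 each. FIP1L1 itself had a log2 difference of 0.35 between shRNA 2 and shRNA 1 (SE 0.10, edgeR adjusted p = 0.00415), and its part in these differences was not tested.

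The balance of inducible to constitutive catalytic subunits was read as a ratio of counts within a library, where scaling cancels. The mean ratio was above the control for all 3 pairs with shRNA 1 and below it for all 3 with shRNA 2. For PSMB8 over PSMB5, both chymotrypsin-like, the ratio was 1.55, 1.83, 1.69 and 1.69 with shRNA 1, 0.620, 0.686, 0.553 and 0.643 with shRNA 2, and 1.04, 1.01, 1.11 and 1.00 in the control. The 3 groups did not overlap. The log2 ratio differed from the control by 0.70 with shRNA 1 and by -0.74 with shRNA 2, each with an exact two-sided permutation p of 0.0286, the smallest that 4 against 4 allows, and 0.0571 adjusted over 6 comparisons.

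For PSMB10 over PSMB7, both trypsin-like, the log2 ratio ran from -3.55 to -2.61 with shRNA 1, from -4.56 to -4.16 with shRNA 2 and from -4.20 to -3.72 in the control. The difference was 1.14 with shRNA 1 (exact permutation p = 0.0286, adjusted 0.0571) and -0.24 with shRNA 2 (exact permutation p = 0.229, adjusted 0.257). PSMB10 itself was not called with shRNA 1, with 5.14, 12.01, 10.9 and 11.6 CPM against the control values given above (log2 change 0.05). Over 50% of its coding bases are shared with a gene that was called higher with both shRNAs. The part of that gene in the ratio was not tested. For PSMB9 over PSMB6, which share a place in the ring, the log2 difference was 0.40 with shRNA 1 (exact permutation p = 0.0571, adjusted 0.0857) and -0.16 with shRNA 2 (exact permutation p = 0.257, adjusted 0.257), with an overlap in both. None of the 6 differences passed 0.05 after adjustment. PSMB8 had 48.2, 46.6, 55.5 and 57.1 CPM with shRNA 1, a log2 change of -0.37 (SE 0.08, edgeR adjusted p = 0.000697). PSMB9 had 16.1, 19.1, 21.1 and 22.0 CPM with shRNA 1, a change of -0.28 (SE 0.11, edgeR adjusted p = 0.0392).

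**Figure D4:**
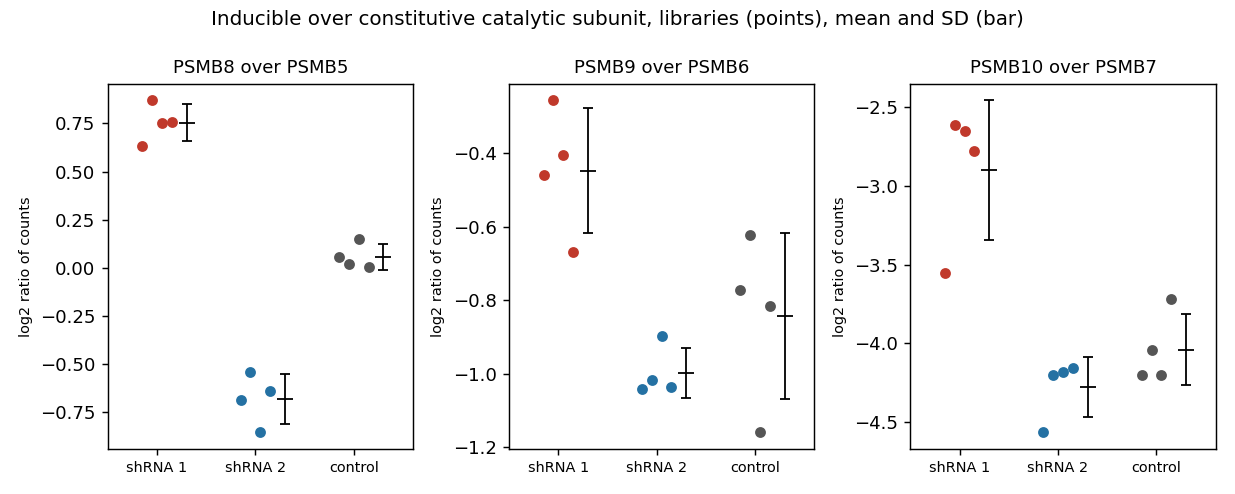
Log2 ratio of counts of each inducible catalytic subunit over the constitutive one it replaces, for each library, with the mean and SD of the 4 libraries per group. For PSMB8 over PSMB5 the shRNA 1 libraries lie between 0.63 and 0.87, the shRNA 2 libraries between -0.85 and -0.54 and the control libraries between 0.00 and 0.15.

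Genes that work with the proteasome were described from 3 lists. Of 28 regulators and partners, 12 were lower and 5 higher with shRNA 1, and 10 were lower and 7 higher with shRNA 2, with median log2 changes of -0.05 and -0.01. Over all genes tested, 28.7% were lower and 28.6% higher with shRNA 1, and 25.3% were lower and 24.7% higher with shRNA 2. NFE2L1, the transcription factor of proteasome genes, had 175, 165, 156 and 146 CPM with shRNA 1, 437, 420, 405 and 440 CPM with shRNA 2, and 301, 290, 320 and 303 CPM in the control. It was below the control in every library with shRNA 1 (log2 change -0.92, SE 0.06, edgeR adjusted p = 2.66e-11) and above it in every library with shRNA 2 (0.49, SE 0.06, edgeR adjusted p = 8.99e-07). DDI2, the protease known to cut and activate NFE2L1, had 39.7, 35.1, 31.4 and 30.5 CPM with shRNA 1, 45.8, 48.1, 49.8 and 46.9 CPM with shRNA 2, and 86.9, 83.3, 88.9 and 80.6 CPM in the control. It fell with both, by 1.31 with shRNA 1 (SE 0.08, edgeR adjusted p = 4.08e-12) and by 0.83 with shRNA 2 (SE 0.08, edgeR adjusted p = 1.08e-08). ADRM1, a ubiquitin receptor of the base, had 58.7, 51.3, 74.9 and 89.5 CPM with shRNA 1, 99.1, 106, 116 and 115 CPM with shRNA 2, and 151, 126, 141 and 114 CPM in the control. Its log2 change was -0.96 with shRNA 1 (SE 0.15, edgeR adjusted p = 6.33e-05) and -0.29 with shRNA 2, which was called only with those 2 groups alone in the fit (adjusted p = 0.00246). The shuttle factor UBQLN4 changed by -0.92 with shRNA 1 and was not called with shRNA 2, at -0.11. The core maturation factor POMP, named after its values were seen, was at -0.57 with shRNA 1 and 0.52 with shRNA 2, both called. NFE2L2, which binds the same motif as NFE2L1 and was also named after its values were seen, did not follow NFE2L1. It was higher with both, by 0.85 with shRNA 1 (SE 0.09, edgeR adjusted p = 2.75e-08) and by 0.48 with shRNA 2 (SE 0.09, edgeR adjusted p = 0.000129).

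The enzymes that activate ubiquitin, UBA6 and UBA1, changed by -0.61 and -0.44 with shRNA 1 and were not called with shRNA 2, at -0.13 and -0.07. Of 23 genes of MHC class I antigen processing and interferon regulation, which use the peptides the immunoproteasome makes, 21 were tested. Higher were 7 and lower 6 with shRNA 1, and higher 7 and lower 5 with shRNA 2, set against 57.3% of all genes tested called with shRNA 1 and 50% with shRNA 2. PDIA3, a chaperone of the peptide loading complex, had 89.98, 92.8, 99.6 and 107 CPM with shRNA 1, 261, 261, 275 and 259 CPM with shRNA 2, and 196, 207, 270 and 254 CPM in the control. It was lower with shRNA 1 (log2 change -1.25, SE 0.09, edgeR adjusted p = 2.86e-11). With shRNA 2 it was not called, at 0.19, but passed without control replicate 3 (edgeR adjusted p = 0.01) or 4 (0.039) and with no filter (0.0175). The interferon factor IRF9 and the GTPase GBP2 were called higher with both at means of at most 3.04 CPM, by 1.22 and 0.85 with shRNA 1 and by 1.40 and 1.28 with shRNA 2. With shRNA 1, IRF9 lost its call without any 1 of control replicates 1, 2 and 4 or shRNA 1 replicates 1, 2 and 3 (edgeR adjusted p up to 0.154), and GBP2 without control replicates 1, 2 or 4 or shRNA 1 replicates 2 or 3 (up to 0.109). Both also lost it with no filter (0.0529 for IRF9 and 0.062 for GBP2, edgeR adjusted p) and with only the 2 groups (0.072 and 0.0603). With shRNA 2, IRF9 lost it without control replicates 1 or 4 or shRNA 2 replicate 1 (up to 0.121).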

How the data were processed

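The authors deposited raw read counts, 1 whole number for each Ensembl gene and RNA-seq library. The submitters' processing notes name STAR 2.7.3a, cutadapt 2.6, DESeq2 and hg19, without roles. How reads were assigned to genes, with which annotation and strand setting, is not given in the sources here. The 10 3'READS libraries were not used here. No column lacked a sample.

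Ensembl IDs were given symbols, positions and exon lengths from GENCODE 29 (GRCh38), with newer symbols from a name table (45342 of 48162 IDs had a symbol). Promoters came from RefSeq on GRCh38.p14. The test was edgeR 4.0.16's robust quasi-likelihood F test (R 4.3.3), fitted once over the 12 libraries with TMM scaling, filterByExpr and 9 residual degrees of freedom. Benjamini-Hochberg adjustment ran over 15834 genes at 0.05, two-sided. The fit was tested on simulated data, where 108 of 200 genes changed 1.5-fold were called, all with the right sign. Of the unchanged genes, 5 were called. A change of that size could therefore go uncalled in that setting. There 200 of 15597 genes were changed, while with shRNA 1 in the data 57.3% of all genes tested were called. The adjustment is stricter where few genes change, so the share called there does not give the share in these data. The contrasts were shRNA 1 against control, shRNA 2 against control and shRNA 2 against shRNA 1. Ratios of catalytic subunits were tested with exact permutation tests over libraries. 

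The genes and lists were chosen with earlier results of these data known. Every gene of the symbol rule may be named. Values in every library are given for PSMB5 to PSMB10, for the largest change in each role with each shRNA, and for the top 5 genes called in the same or in opposite directions with both. From each other list up to 3 called genes with the largest change, and NFE2L1, are named, and some results of these lists are not reported here. Alternatives were RLE scaling, no filter, DESeq2 1.42.0, the 2 compared groups alone, the replicate number as a block, each library left out, 1 count added to ratios and another gene length.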

Additional observations from a re-analysis of the deposited data

Results flagged for a closer look

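For 35 genes with values in every library, each group of 4 was checked for a library that stands apart, with a gap to its nearest neighbour that is wide against the group's range (Dixon's 95% critical value). Of 105 groups, 5 had one, and chance gives about 1 in 20. The check finds 1 stray library and does not see an even split of the 4. With shRNA 1, PSMD3 had 52.9 and 59.0 CPM in replicates 1 and 2, and 78.5 and 83.0 CPM in replicates 3 and 4. PSMD3 was not alone in this. Between the same replicates, PSME2 went from 18.5 and 17.5 CPM to 28.0 and 30.3 CPM. ADRM1 went from 58.7 and 51.3 CPM to 74.9 and 89.5 CPM. The other way, PSMD14 went from 35.9 and 30.2 CPM to 24.2 and 25.7 CPM. Genes with such a split were not counted in either direction, and such splits were not tested. PSMB10 had 5.14 CPM in shRNA 1 replicate 1, below the 10.9 to 12.01 CPM of the others. Without that library PSMB10 was lower with shRNA 2 than with shRNA 1 (edgeR adjusted p = 0.00181). PSMF1 had 124 CPM in shRNA 2 replicate 2, below 136 to 137 CPM in the others. PDIA3 had 275 CPM in shRNA 2 replicate 3, above 259 to 261 CPM. PSMG1 had 45.0 CPM in control replicate 3, above 37.1 to 37.9 CPM. UBQLN4 had 113 CPM in control replicate 3, above 108 to 109 CPM.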

How the results depend on the processing

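The counts of genes called stayed within 1.5 times under RLE scaling, no filter, DESeq2, only the 2 groups compared and the replicate block. With the replicate block, 27 genes were lower with shRNA 1 and 18 with shRNA 2, and 22 were higher with shRNA 2 than with shRNA 1. Same-numbered libraries of different groups correlated between -0.0369 and 0.0893 after each group's mean was taken off, a weak relation. Differently numbered libraries were not compared, so pairing by number was not settled. With the block, edgeR adjusted p was 0.0597 for PSMD9 with shRNA 2 and 0.0606 in shRNA 2 against shRNA 1, where both calls were lost, and PSMD3 (0.021), PDIA3 (0.022) and PSME2 (0.0277) passed with shRNA 2. Leaving out 1 library at a time gave 25 to 30 lower and 3 to 4 higher with shRNA 1, 14 to 18 lower and 3 to 6 higher with shRNA 2, and 22 to 23 higher and 6 to 9 lower with shRNA 2 than with shRNA 1. Without the 5 genes mostly shared on the same strand, an alternative chosen after seeing the data, 3 genes were higher with shRNA 2. The ratio differences kept their sign when 1 count was added and when a library was left out.

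Values near 0 changed sign, none of them called, and the cause was not tested. PSMD9 with shRNA 1 was -0.00678 with no filter and ran from -0.141 to 0.179 when 1 library was left out. PSMD2 in shRNA 2 against shRNA 1 was -0.00297 with only the 2 groups and ran from -0.0509 to 0.0843. Leaving out 1 library with shRNA 1 gave -0.0598 to 0.266 for PSMB10, -0.0285 to 0.0604 for PSMC6 and -0.00792 to 0.473 for PSMG2. It gave -0.0881 to 0.0445 for PSMC4 with shRNA 2. In shRNA 2 against shRNA 1 it gave -0.117 to 0.389 for IRF9 and -0.113 to 0.117 for PSMC3IP. Dividing by the longest coding transcript moved the levels of all 47 genes. Depth limits PSMA2, PSMA6, PSMD9 and PSMG2 most.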
